A study of Mus musculus with 9 samples.

Results

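The 10 genes described here encode enzymes and regulators of fatty acid synthesis: Srebf1, Thrsp, Acly, Me1, Acaca, Fasn, Elovl6, Scd1, Gpam and Pnpla3. They were taken by name, and all 10 were on the array and among the 16804 genes tested. They carried 16 probes of the 41174 on the array, of which 15 passed the filter on dim probes (well above background on every array of at least 1 group). RNA from liver lobe A of 3-month-old male C57BL/6 mice was hybridised to 9 Agilent arrays in 1 colour. Untreated (wild-type) liver, liver after AAV-GFP and liver after AAV-hGRβ had 3 arrays each. AAV is an adeno-associated virus used to deliver a gene, GFP is green fluorescent protein and stands as the vector control, and hGRβ is the human glucocorticoid receptor in its β isoform, a splice form that differs from the hormone-binding α isoform at its carboxyl end. The labels name neither the promoter of the vectors, nor the dose, nor the time after delivery, and do not say whether replicates are separate mice, so p-values measure the spread between these samples, which may be technical. The level of the human transgene was not analysed here.

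The liver makes fatty acids from the carbon of sugars. Citrate exported from mitochondria is split into acetyl-CoA, acetyl-CoA is carboxylated to malonyl-CoA, fatty acid synthase joins these units into palmitate with the reducing power of NADPH, and elongases and desaturases turn palmitate into the longer and unsaturated fatty acids that enter triglycerides. Feeding and insulin raise the transcription of these genes through SREBP-1c, a product of Srebf1, and glucocorticoids are known to act on the same pathway.

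All levels are log2 of the processed signal minus the 75th percentile of the same array, so that 0 marks the percentile, and are given as mean ± SD (n = 3). Each probe binds with its own strength, so levels are compared between groups and not between genes. Between 54.0% and 82.0% of the gene spots of an array were well above background, the lowest share being that of untreated replicate 3. The correlation over all genes was 0.973 to 0.988 between arrays of 1 group and 0.950 to 0.989 between groups. Untreated replicate 3 held the highest value of 9 of the 10 fatty acid synthesis genes, against 9.9% of all genes. The mean of the 10 genes, each centred on its own mean over the 9 arrays, was 0.80 on that array and 0.20 and 0.12 on the other 2 untreated arrays. It was 0.19, 0.03 and -0.12 with AAV-GFP and -0.40, -0.39 and -0.45 with AAV-hGRβ. The AAV-hGRβ arrays therefore lay below all others and close together, while the AAV-GFP arrays overlapped with the untreated ones.

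Signal of the fatty acid synthesis genes was lower with AAV-hGRβ than in untreated liver for 9 of the 10 genes when each was read from its brightest probe and for 8 as the mean over a gene's probes, where Acaca turned to 0.35. Of the 10, Fasn, Elovl6 and Srebf1 passed the test (limma over all genes, Benjamini-Hochberg adjusted p under 0.05, two-sided). Fasn fell 2.83-fold, Elovl6 2.77-fold and Srebf1 2.31-fold. The group means of 9 genes were lower at each step in the order untreated, AAV-GFP, AAV-hGRβ. This held for 8 genes as the mean over probes and for 5 genes under normexp background correction. It held for 9 genes when bright local backgrounds were replaced before normexp. Read from the brightest probes and without normexp, the same order of means was found in 22.5% of all genes. Probes of Acaca and of Me1 differed in direction. When arrays were scaled to their medians, the median difference of all genes was -0.33 for AAV-hGRβ against AAV-GFP and -0.25 for AAV-hGRβ against untreated liver. That of the 10 genes was -0.83 and -1.22. Such scaling shifts every gene of an array by the same amount, so it could not change the gap between the 10 genes and the rest. Read from the brightest probes, only Pnpla3 had its highest mean with AAV-hGRβ. Under normexp Pnpla3 did not, being at -0.51 against untreated liver. Dimmer probes of Acaca and Me1 also had their highest mean with AAV-hGRβ. The arrays of none of the 10 genes were separated at both steps, which was so for 0.78% of all genes. In whole tissue, fewer cells of a type and less RNA per cell cannot be told apart. The plot of the members by array shows each value.

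**Figure D1:**
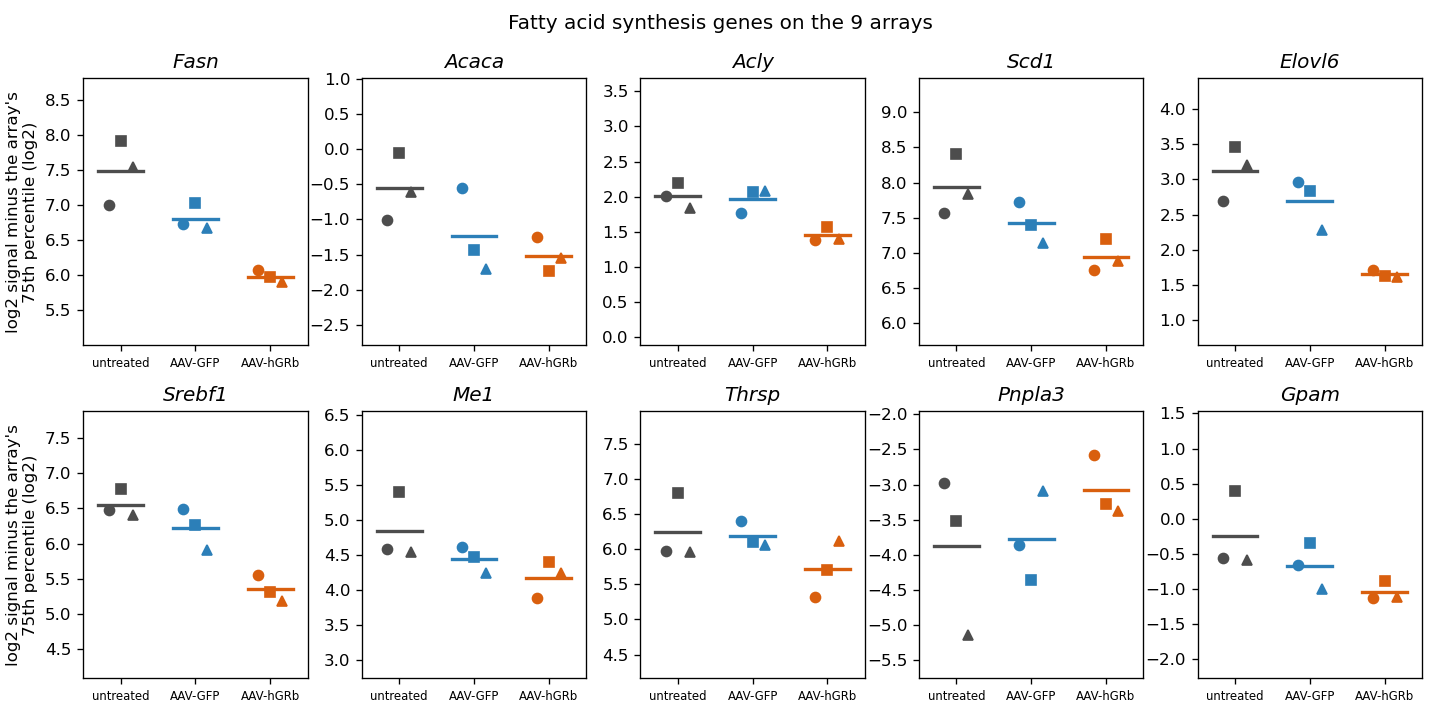
Log2 signal minus the array's 75th percentile for each of the 10 genes (1 panel each; every y axis spans the same number of log2 units) in the 3 groups. Points are single arrays (circle, square and triangle for the replicates of a group in numerical order) and lines are group means; the AAV-hGRβ arrays of Fasn, Acly, Elovl6 and Srebf1 lie below all other arrays.

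Srebf1 encodes the membrane-bound transcription factor that, once cleaved, activates most of the enzymes of the pathway. Its probe (A_51_P401921, chr11:60281270-60281329, minus strand, build mm7 as in the array files) read 6.47, 6.78 and 6.40 on the untreated arrays, 6.50, 6.26 and 5.90 with AAV-GFP, and 5.56, 5.30 and 5.18 with AAV-hGRβ. All 3 AAV-hGRβ arrays lay below every other array, and AAV-GFP overlapped with untreated liver. The means were 6.55 ± 0.20, 6.22 ± 0.30 and 5.35 ± 0.19. The difference of AAV-hGRβ from untreated liver was -1.21 (SE 0.21, limma adjusted p = 0.0241). It was made of a first step of -0.33 (SE 0.21, adjusted p = 0.505) and a second of -0.87 (SE 0.21, adjusted p = 0.12). Thrsp encodes Spot 14, a small nuclear protein of lipogenic tissues induced by thyroid hormone. Its levels were 6.24 ± 0.48, 6.19 ± 0.19 and 5.71 ± 0.39 in the order untreated, AAV-GFP and AAV-hGRβ. The highest AAV-hGRβ array of Thrsp, 6.11, lay above the lowest arrays of both other groups, and its difference of -0.53 (SE 0.29) from untreated liver did not pass (limma adjusted p = 0.264).

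Acly encodes ATP citrate lyase, which makes cytosolic acetyl-CoA from citrate. Its probe A_51_P261718 (chr11:100586242-100586300, minus strand, mm7) read 2.01, 2.19 and 1.84 in untreated liver, 1.77, 2.07 and 2.08 with AAV-GFP, and 1.38, 1.57 and 1.40 with AAV-hGRβ. The first 2 groups overlapped throughout, and the AAV-hGRβ arrays lay below both. Nearly all of the difference was in the second step: the first step was -0.04 (SE 0.17) and the second -0.52 (SE 0.17, limma adjusted p = 0.257), neither of which passed. A second Acly probe came from an unclassified transcript and was above background on 1 of 9 arrays. Me1 encodes cytosolic malic enzyme, a source of NADPH. Its brighter probe gave 4.84 ± 0.48, 4.44 ± 0.19 and 4.18 ± 0.26 in the 3 groups. The difference of AAV-hGRβ from untreated liver was -0.67 (SE 0.26, limma adjusted p = 0.159), and the 2 groups did not overlap.

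Fasn encodes fatty acid synthase, the multi-domain enzyme that builds palmitate. Its brighter probe A_51_P321126 (chr11:120916191-120916250, minus strand, mm7) read 7.01, 7.91 and 7.53 in untreated liver. It read 6.73, 7.02 and 6.67 with AAV-GFP and 6.07, 5.97 and 5.90 with AAV-hGRβ. The 3 groups formed a ladder that was broken at 1 place, where an AAV-GFP array (7.02) lay just above an untreated one (7.01). The first step was -0.67 (SE 0.24, limma adjusted p = 0.489), the second -0.83 (SE 0.24, adjusted p = 0.199), and both together -1.50 (SE 0.24, adjusted p = 0.0163). Acaca encodes acetyl-CoA carboxylase 1, which makes malonyl-CoA and commits carbon to the pathway. Its brightest probe gave -0.56 ± 0.48, -1.23 ± 0.60 and -1.51 ± 0.24, and its difference of -0.96 (SE 0.34) between AAV-hGRβ and untreated liver did not pass (limma adjusted p = 0.138).

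Elovl6 encodes the elongase that lengthens palmitate to stearate. Its probe A_51_P463440 (chr3:129477684-129477743, plus strand, mm7) read 2.70, 3.46 and 3.20 in untreated liver, 2.96, 2.84 and 2.28 with AAV-GFP, and 1.71, 1.62 and 1.61 with AAV-hGRβ. The AAV-hGRβ arrays were nearly equal and lay well below the others, which overlapped. Elovl6 had the largest second step of the 10 genes, -1.04 (SE 0.25, limma adjusted p = 0.119), after a first step of -0.43 (SE 0.25). Its difference over both steps was -1.47 (SE 0.25, limma adjusted p = 0.0219). Scd1 encodes stearoyl-CoA desaturase 1, which puts the first double bond into stearate and palmitate. Its arrays read 7.57, 8.41 and 7.84, then 7.73, 7.40 and 7.15, then 6.76, 7.19 and 6.88. The AAV-hGRβ arrays of Scd1 lay below all untreated arrays but 1 of them lay above the lowest AAV-GFP array. The steps were of like size, -0.52 and -0.48 (SE 0.26 each), and both together were -0.995, with a limma adjusted p of 0.0698.

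Gpam encodes the mitochondrial glycerol-3-phosphate acyltransferase that starts triglyceride assembly. Its levels were -0.25 ± 0.55, -0.67 ± 0.33 and -1.04 ± 0.14, with a difference of -0.80 (SE 0.29, limma adjusted p = 0.142) between AAV-hGRβ and untreated liver, whose arrays did not overlap. Pnpla3 encodes a lipid droplet lipase and acyltransferase whose human counterpart carries a well-known risk allele for fatty liver. Its probe was above background on 8 of 9 arrays. It read -2.98, -3.52 and -5.14 in untreated liver, -3.86, -4.35 and -3.09 with AAV-GFP, and -2.57, -3.28 and -3.37 with AAV-hGRβ. These arrays overlapped in every pair of groups, with an SD of 1.13 among the untreated ones. The difference of 0.81 (SE 0.55) between AAV-hGRβ and untreated liver did not pass (limma adjusted p = 0.358).

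The stretches before the transcription start of the 3 genes that passed are shown because SREBP-1c acts on promoters of this pathway (RefSeq, build GRCm38.p6, the 250 bases before the start, 5′ to 3′ on the gene's strand, capitals marking CCAAT on either strand). Windows were found for 9 of the 10 genes, with 13 starts in all. Of the 3 starts of Srebf1, the one with a CCAAT nearest the start is given.
Fasn: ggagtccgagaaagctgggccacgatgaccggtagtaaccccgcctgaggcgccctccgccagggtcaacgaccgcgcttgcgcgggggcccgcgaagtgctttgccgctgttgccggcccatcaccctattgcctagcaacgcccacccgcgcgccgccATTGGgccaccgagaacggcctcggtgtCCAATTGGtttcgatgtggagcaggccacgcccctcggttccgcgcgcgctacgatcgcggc
Elovl6: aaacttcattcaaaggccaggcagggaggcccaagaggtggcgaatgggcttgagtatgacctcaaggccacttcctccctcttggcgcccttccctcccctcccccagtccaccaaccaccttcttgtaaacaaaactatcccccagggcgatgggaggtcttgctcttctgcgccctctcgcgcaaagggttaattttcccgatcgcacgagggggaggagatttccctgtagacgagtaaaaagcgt
Srebf1: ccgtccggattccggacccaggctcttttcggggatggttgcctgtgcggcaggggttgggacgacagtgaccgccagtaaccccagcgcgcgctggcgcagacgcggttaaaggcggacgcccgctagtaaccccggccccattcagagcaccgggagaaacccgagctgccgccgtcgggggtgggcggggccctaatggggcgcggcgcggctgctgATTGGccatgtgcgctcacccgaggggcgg
These windows lie at chr11:120824548-120824797 on the minus strand for Fasn, at chr3:129532136-129532385 on the plus strand for Elovl6 and at chr11:60210472-60210721 on the minus strand for Srebf1. Fasn held 3 matches to CCAAT, beginning 90, 62 and 59 bases before the start, of which the last 2 overlap on opposite strands. Srebf1 held 1, at 30 bases, and Elovl6 none. Of the 13 windows, 7 held CCAAT before the start, beside 33.9% of the 32851 windows in the table; windows of 1 gene can share sequence. The sterol regulatory element TCACNCCAC was in none of the 13 windows and in 1.05% of all, and the E-box CACGTG in none of the 13 and in 6.02% of all. A missing match says only that these letters are not in these bases.

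Taking the vector comparison first, the AAV-GFP arrays did not differ from the untreated ones for any of the 10 genes at an adjusted p under 0.05, and no gene passed in either direction over the whole array (0% higher and 0% lower by limma, with 1646 genes at an unadjusted p under 0.05). Of the 10 genes, 1, Fasn, had an unadjusted p under 0.05 (0.019). The arrays of none of the 10 were separated downward, against 9.2% of all genes. The median difference of the 10 was -0.41, beside 0.04 for all genes. That median rests in part on untreated replicate 3: without that array it was -0.17, and 7 genes in place of 9 were below 0, Acly and Thrsp turning to 0.05 and 0.23.

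For AAV-hGRβ against AAV-GFP, both groups had received an AAV vector. In this comparison 0 of the 10 genes passed, beside 0.0774% of all genes lower and 0.821% higher (limma, 13 and 138 genes). The unadjusted p was under 0.05 for 4 of them, Fasn, Acly, Elovl6 and Srebf1, and the same count over all genes was 1965. The same 4 genes had every AAV-hGRβ array below every AAV-GFP array, a share to be read beside 6.46% of all genes. The median difference was -0.48, with 9 genes below 0, beside 0.02 for all genes. Under normexp it was -0.10, with 6 genes below 0, and Acly, Me1, Scd1 and Thrsp turned positive and Pnpla3 negative. With bright local backgrounds replaced before normexp it was -0.45, with 9 genes below 0. The upper ends of the 95% intervals were -0.29 for Fasn, -0.14 for Acly, -0.48 for Elovl6 and -0.40 for Srebf1, and above 0 for the other 6.

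For AAV-hGRβ against untreated liver, 3 of the 10 genes were lower and 0 higher, beside 0.75% lower and 2.45% higher over all genes. Read from the brightest probes, the arrays of 8 genes, all but Thrsp and Pnpla3, were separated downward, beside 14.6% of all genes. The 8 included Acaca and Me1, whose other probes gave differences above 0. The median difference was -0.88, beside 0.09 for all genes. This comparison shares its AAV-hGRβ and its untreated arrays with the other 2 and is not independent of them. The calls of Fasn, Elovl6 and Srebf1 were lost without untreated replicate 3 (limma adjusted p of 0.0613, 0.0966 and 0.11), without untreated replicate 4, without AAV-hGRβ replicate 3 and with the slide as a random block (0.104, 0.127 and 0.192). They were also lost under normexp, without the filter on dim probes and with replicate number as a block (limma adjusted p of 0.208, 0.208 and 0.169 for the last). Without AAV-hGRβ replicate 2, Fasn alone of the 10 passed. The differences were -1.29, -1.30 and -1.09 without untreated replicate 3, and -0.93, -1.07 and -0.61 under normexp (limma adjusted p of 0.646, 0.486 and 0.726). With bright local backgrounds replaced before normexp, they were -1.50, -1.52 and -1.17 and all 3 genes passed (limma adjusted p of 0.00622, 0.00838 and 0.0125).

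**Figure D2:**
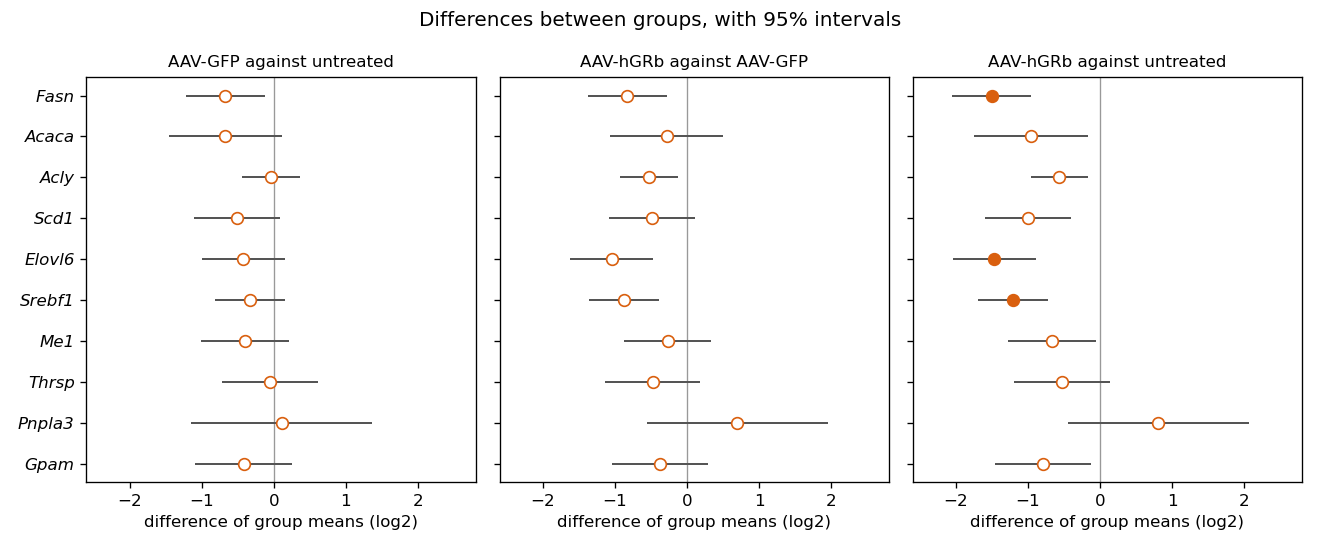
Difference of group means (log2, x axis) for the 10 genes in the 3 comparisons, with 95% intervals from limma as bars; filled points passed at an adjusted p under 0.05. Fasn, Elovl6 and Srebf1 are filled for AAV-hGRβ against untreated liver, and no point is filled in the other 2 panels.

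The evenness of the steps was tested directly, as the second step minus the first. It passed for 0 of the 10 genes and for 0.00595% of all genes (1 gene, limma). The estimate was -0.15 for Fasn (95% interval -1.08 to 0.77), -0.62 for Elovl6 (-1.59 to 0.35), -0.54 for Srebf1 (-1.35 to 0.28) and -0.49 for Acly (-1.15 to 0.18). A negative value means a larger second step. The intervals reach from steps that differ by more than 1 log2 unit to steps that are equal, so 3 arrays a group do not settle whether the steps are even. Scd1 and Gpam had the most even steps, with differences of 0.04 each.

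**Figure D3:**
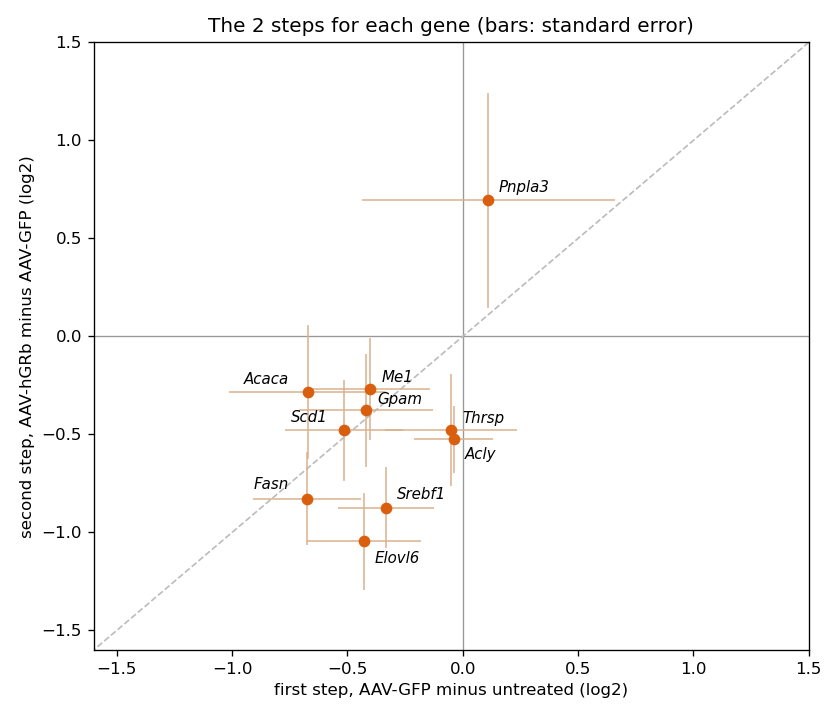
The first step (AAV-GFP minus untreated, x axis) against the second (AAV-hGRβ minus AAV-GFP, y axis), in log2, for each of the 10 genes, with standard errors as bars and the dashed line where both steps are equal. Of the 10 genes, 9 lie at the lower left, where both steps are negative, and Pnpla3 lies in the upper right.

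Arrays were scanned on 2 days, with 2 arrays of each group on day 1 and 1 of each on day 2. On day 1 each slide held arrays of 1 group only, so slide and group cannot be told apart there. On day 2, AAV-GFP replicate 3 and AAV-hGRβ replicate 1 shared a slide. No untreated array shared a slide with another group. Within day 1 the median difference of the 10 genes was -0.42 for AAV-GFP against untreated, -0.51 for AAV-hGRβ against AAV-GFP and -0.99 for AAV-hGRβ against untreated. Within day 2 it was -0.38, -0.37 and -0.67. Fasn differed between AAV-hGRβ and untreated liver by -1.78 on day 1 and -0.94 on day 2, Elovl6 by -1.71 and -0.99, and Srebf1 by -1.35 and -0.92. The order of the groups was thus the same on both days for these 3 genes.

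Several of the genes had more than 1 probe, and the probes did not always move together. The 2 Fasn probes, whose starts lie 794 bases apart on chromosome 11, followed each other over the 9 arrays (r = 0.98), and the dimmer one gave -0.66, -0.98 and -1.64 for the first step, the second and both (SE 0.33, adjusted p = 0.045 for both, limma over 24290 probes). The 2 Me1 probes parted. Their means over the 9 arrays were nearly equal, so the choice of A_51_P186601 to stand for the gene rested on a small margin. The other, A_51_P266861, gave 0.02 for the first step and 0.22 for the second. Between AAV-hGRβ and untreated liver it gave 0.24 (SE 0.29) where A_51_P186601 gave -0.67. Within an array, A_51_P186601 minus A_51_P266861 was 0.21, 0.46 and 0.67 in untreated liver, 0.56, -0.16 and -0.33 with AAV-GFP, and -0.48, -0.51 and -0.39 with AAV-hGRβ. The probe with the downward values was designed on a partial coding sequence of a null allele of the gene, per the array files.

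Acaca had 4 probes. The brightest, A_52_P318040 (chr11:84470765-84470824, plus strand, mm7), which stands for the gene, was designed on a cDNA clone that the array files describe as holding an apparent retained intron. The other 3, whose 60 bases span introns, are printed because their values run against it.
A_52_P595124: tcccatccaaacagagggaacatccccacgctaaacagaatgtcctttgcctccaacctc
A_52_P23177: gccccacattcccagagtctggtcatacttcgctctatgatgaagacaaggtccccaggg
A_51_P439426: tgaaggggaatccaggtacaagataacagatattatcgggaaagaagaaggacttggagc
They lie at chr11:84350405-84362820, chr11:84363852-84364855 and chr11:84411918-84415918, plus strand, mm7, and each holds at least 1 reading frame without a stop. Their differences between AAV-hGRβ and untreated liver were 0.50 (SE 0.26), 1.08 (SE 0.64) and 0.76 (SE 0.61), opposite in sign to the -0.96 of the brightest probe, and none of the 4 passed. They were above background on 8, 8 and 7 of 9 arrays and correlated with the brightest probe at -0.64, -0.43 and -0.20. The mean over the 4 probes gave 0.35 for Acaca in place of -0.96. A direction for Acaca therefore depends on the probe.

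**Figure D4:**
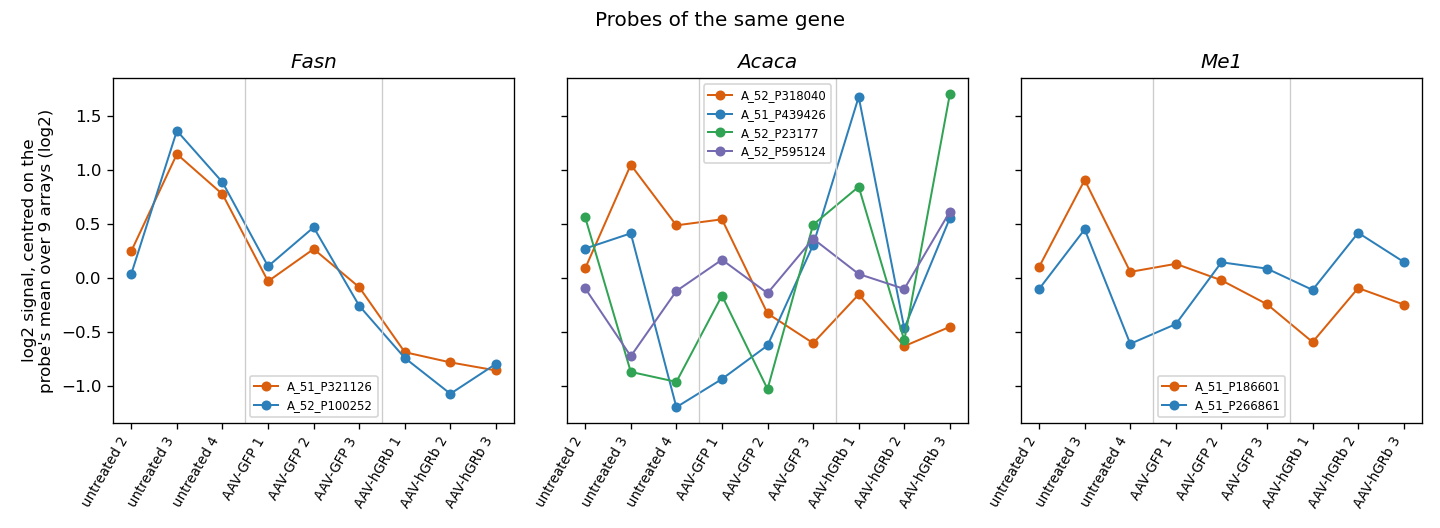
Log2 signal of each kept probe of Fasn, Acaca and Me1 on the 9 arrays, centred on the probe's own mean (y axis, log2), with arrays in the order untreated, AAV-GFP, AAV-hGRβ on the x axis. The 2 Fasn probes run together (r = 0.98), while the brightest Acaca probe and the other 3, and the 2 Me1 probes, do not.

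Over the 9 arrays the 10 genes moved together, apart from Pnpla3. The 45 pairs had a median Pearson r of 0.78 (range -0.60 to 0.97), and 0.51 (range -0.48 to 0.92) after the group means were taken out. Acly then had an r of -0.34 with Acaca and of -0.14 with both Elovl6 and Srebf1. With the remaining genes its r was between 0.19 and 0.55. These are descriptions over arrays that share the groups and untreated replicate 3. Each gene's r with the mean of the other 9 was 0.75 for Thrsp, 0.77 for Acly and 0.81 for Acaca, lay between 0.89 and 0.94 for the other 6 apart from Pnpla3, and was -0.47 for Pnpla3. Outside the 10, the genes whose values over the 9 arrays were most like the mean of the 10 included Rnf103 (r = 0.97), which encodes a membrane ubiquitin ligase, Cav1 (r = 0.94), which encodes caveolin-1, and 2 transcripts named only by identifiers.

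Other genes of lipid metabolism were read from 7 lists, chosen with results of these data known. For cholesterol synthesis, the branch governed by SREBP-2, 3 of 17 genes were lower with AAV-hGRβ than in untreated liver, beside 0.75% of all genes, and the median difference was -0.63. Among them were Stard4, a sterol transfer protein, at -0.97 (SE 0.18, limma adjusted p = 0.0334), and Lss, lanosterol synthase, at -0.99 (SE 0.19, adjusted p = 0.0358). Among 16 regulators of lipogenesis only Scap passed, the escort that carries SREBPs to the Golgi, at -0.87 (SE 0.18, limma adjusted p = 0.0441). Scap read 5.71, 5.86 and 5.83 in untreated liver, 5.45, 5.48 and 5.34 with AAV-GFP, and 5.16, 5.05 and 4.59 with AAV-hGRβ, so its 3 groups were separated at both steps. None of Stard4, Lss and Scap passed without untreated replicate 3 (limma adjusted p of 0.122, 0.135 and 0.171), and all 3 also failed without untreated replicate 4, without AAV-GFP replicate 2 and without any 1 of the AAV-hGRβ arrays. Stard4 and Lss thus failed in 6 of 9 such fits. As the mean over a gene's probes, Stard4 and Lss also failed, at -0.72 and -0.51 (limma adjusted p of 0.0673 and 0.129). Under normexp, Stard4, Lss and Scap were at -0.41, -0.60 and -0.39 and did not pass (limma adjusted p of 0.726, 0.478 and 0.758). With bright local backgrounds replaced before normexp, they were at -0.94, -0.95 and -0.94 and passed (limma adjusted p of 0.0188, 0.0136 and 0.0207). Scap failed with any 1 array left out except untreated replicate 2 (limma adjusted p up to 0.179). Pparg, the nuclear receptor of adipocytes, was the other regulator named by rank, at -0.70 (SE 0.18) for AAV-GFP against untreated liver, and did not pass (limma adjusted p = 0.489).

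None of the genes in the other 5 lists passed in any comparison. Between AAV-hGRβ and untreated liver the medians were -0.72 for 11 other elongases and desaturases, -0.43 for 24 genes of triglyceride synthesis and lipid droplets, -0.52 for 9 genes of glucose entry and glycolysis, -0.29 for 14 genes of acetyl-CoA and NADPH supply, and -0.35 for 16 genes of fatty acid oxidation. Among the highest ranked were Elovl2 (-1.02, SE 0.27) and Elovl5 (-0.79, SE 0.22), elongases of polyunsaturated fatty acids, and Acsl1 (-0.87, SE 0.20) and Dgat2 (-0.69, SE 0.16), which activate fatty acids and close the triglyceride. Slc2a2 (-0.65, SE 0.18), the hepatic glucose transporter, followed, with Cs (-0.72, SE 0.17), citrate synthase, and Pdha1 (-0.53, SE 0.15), a subunit of pyruvate dehydrogenase. Acacb, the mitochondrial acetyl-CoA carboxylase that restrains oxidation, was at -1.21 (SE 0.29), but at 0.12 as the mean over its probes. These 8 had limma adjusted p-values of 0.0555 to 0.0853. In the fatty acid oxidation list all 16 genes were below 0 for AAV-hGRβ against AAV-GFP, with a median of -0.32, and 7 for AAV-GFP against untreated liver, with a median of 0.01.

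**Figure D5:**
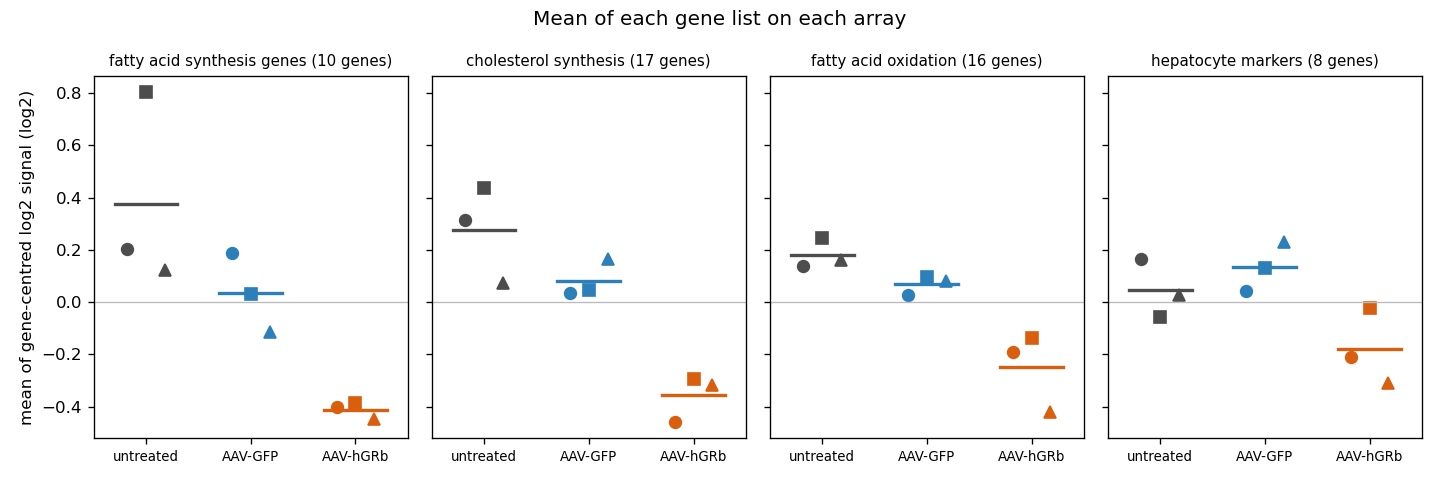
Mean of gene-centred log2 signal (y axis) of 4 gene lists on each of the 9 arrays; points are arrays (circle, square, triangle for the replicates in numerical order) and lines group means. The AAV-hGRβ arrays lie lowest for the fatty acid synthesis, cholesterol synthesis and fatty acid oxidation lists, and untreated replicate 3 stands at 0.80 for fatty acid synthesis and at -0.06 for hepatocyte markers.

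Among markers of other cells, some genes of T and NK cells and of macrophages passed, and none of 7 endothelial and 4 bile duct markers did. The 8 hepatocyte markers tested, among them Alb and Apoa1, were above background on all arrays, with 0 of 8 passing and medians of 0.25 for AAV-GFP against untreated, -0.24 for AAV-hGRβ against AAV-GFP and -0.02 for AAV-hGRβ against untreated. All 8 were below 0 for AAV-hGRβ against AAV-GFP. Against untreated liver 4 were below 0, the lowest at -0.92, and 3 were separated downward, beside 14.6% of all genes. T and NK cell markers were higher with AAV-hGRβ than with AAV-GFP for 4 of 8 genes (limma), beside 0.821% of all genes. Of the 8, Cd8a was above background on 1 untreated, 0 AAV-GFP and 3 AAV-hGRβ arrays. It thus passed the filter on dim probes only through the AAV-hGRβ arrays, which limits this count. The summed level of the T and NK cell markers includes Cd8a. That sum, linear and relative to the percentile, was 4.36 to 10.8 with AAV-hGRβ, 1.53 to 1.89 with AAV-GFP and 1.22 to 1.92 in untreated liver. Macrophage markers were higher for 1 of 8, beside the same share of all genes, with sums of 125 to 181, 50.04 to 87.1 and 52.0 to 59.8. The part of these cells in the lower signal of the fatty acid synthesis genes was not tested. Adipocyte markers had 3 of 6 tested, with sums of 9.30 to 11.2 with AAV-hGRβ, 12.8 to 18.5 with AAV-GFP and 8.59 to 29.7 in untreated liver. Lep was above background on no array, and Adipoq on 1 untreated, 3 AAV-GFP and 2 AAV-hGRβ arrays.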

How the data were processed

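Liver RNA was measured on 9 single-colour arrays, from 500 ng of RNA per the labels' protocols. The deposited array files hold spot intensity values on a linear scale, background-subtracted within each array and not scaled between arrays, per the file headers; the submitters' processing notes name Agilent Feature Extraction 9.5. The deposited series table held the same intensity values (largest difference 0).

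Control and outlier spots were left out, spots of a probe averaged, and log2 intensity taken minus the array's 75th percentile. Of 41174 probes, 24290 were kept, those well above background on each array in 1 or more groups, and each of 16804 genes was represented by its probe of highest mean. Names came from RefSeq (GRCm38.p6) by accession, symbol or older symbol, otherwise from the files; Me1 is Mod1 in the files. Probe positions are on mm7, for which no annotation was used.

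The comparisons used R 4.3.3 and limma 3.58.1 (lmFit and eBayes on all 9 arrays; 6 residual degrees of freedom), tested on simulated data, with Benjamini-Hochberg adjustment over all genes of a comparison at 0.05. The genes and lists were chosen with earlier results of these data known. Besides the 10 genes, the text names the 2 genes of smallest p in each of the 7 other lists, and the 5 genes most like the mean of the 10; some of these are not reported here. Lss was named after its value was seen. Alternatives covered scaling, background correction, filters, choice of probe, slide, scan day, replicate number, arrays left out and array weights. Precision is limited by the 3 arrays a group holds.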

Additional observations from a re-analysis of the deposited data

How the results depend on the processing

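As reported, 151 genes differed between AAV-hGRβ and AAV-GFP, 0 between AAV-GFP and untreated liver and 538 between AAV-hGRβ and untreated liver (limma adjusted p under 0.05), with 3 fatty acid synthesis genes in the last. For 1 gene the 2 steps differed, and 9 of the 10 genes had both steps negative. Scaling to the array median gave 98 genes for AAV-hGRβ against AAV-GFP, 4 for AAV-GFP against untreated and 8 with unequal steps, and split AAV-hGRβ against untreated into 327 higher and 246 lower in place of 412 and 126. Quantile normalization gave 1 gene for AAV-GFP against untreated and 0 with unequal steps. Normexp background correction gave 18 genes for AAV-hGRβ against AAV-GFP, 49 for AAV-hGRβ against untreated with 0 of the 10 among them, 0 with unequal steps, and 5 of the 10 with both steps negative. It reversed Acly (0.0164), Me1 (0.42), Pnpla3 (-0.82), Scd1 (0.31) and Thrsp (0.25) for AAV-hGRβ against AAV-GFP, and Pnpla3 (-0.51) and Thrsp (0.0478) for AAV-hGRβ against untreated. With bright local backgrounds replaced before normexp, the 3 calls held, 9 of the 10 had both steps negative and 0 genes had unequal steps. Between 0.12% and 3.65% of the spots of an array had such backgrounds, the most on untreated replicate 3. Without a filter on dim probes, when more genes were tested, the counts were 30 for AAV-hGRβ against AAV-GFP, 84 for AAV-hGRβ against untreated, 0 of the 10 and 0 with unequal steps. Requiring all 9 arrays above background gave 0 genes with unequal steps. The mean over a gene's probes reversed Acaca (0.42 against AAV-GFP, 0.35 against untreated) and Acacb (0.12 against untreated). Slide as a random block gave 76 genes for AAV-hGRβ against AAV-GFP, 59 for AAV-hGRβ against untreated, 0 of the 10, 0 with unequal steps, and 0.0320 for Thrsp between AAV-GFP and untreated. Scan day as a block gave 257, 1 and 1232 genes for AAV-hGRβ against AAV-GFP, AAV-GFP against untreated and AAV-hGRβ against untreated. Day 1 alone, where slide and group cannot be told apart, gave 3, 1 and 4740, with 5 of the 10 lower in the last. Fitting only the groups compared gave 75 genes for AAV-hGRβ against AAV-GFP and 305 against untreated. Array weights gave 314 genes with 2 of the 10 against AAV-GFP, 6382 with 7 of the 10 against untreated, and 2 with unequal steps. The replicate block gave 2 genes for AAV-hGRβ against AAV-GFP, 1 for AAV-hGRβ against untreated, 0 of the 10, 0 with unequal steps, and -0.62 for Pnpla3 between AAV-GFP and untreated. Arrays with the same number deviated together at -0.32 to 0.24. With 3 arrays a group and pairs from the same and from different scan days, these values do not settle whether the number marks a pairing. With 1 array left out at a time, the counts were 40 (without AAV-GFP replicate 1) to 164 for AAV-hGRβ against AAV-GFP, 0 to 1 for AAV-GFP against untreated, and 94 (without AAV-hGRβ replicate 3) to 2024 (without untreated replicate 2) for AAV-hGRβ against untreated, the latter with 0 to 4 of the 10, and 0 to 1 with unequal steps. Without untreated replicates 3 and 4 in turn, 108 and 98 genes passed for AAV-hGRβ against untreated. Leaving out arrays moved Acly from -0.13 to 0.0604, Thrsp from -0.19 to 0.23 and Pnpla3 from -0.52 to 0.56 between AAV-GFP and untreated, and Acaca from -0.52 to 0.0539 between AAV-hGRβ and AAV-GFP. Where no reason is given, the cause was not tested. Over 24 alternatives with a test, Fasn passed in 17, Elovl6 and Srebf1 in 16, and Scap in 9. Day 2 held 1 array a group and allowed no test. Signal over background limits Pnpla3 and 3 of the Acaca probes most.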
